A study of Mus musculus with 6 samples.

Results

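The keratin family was taken as the protein-coding genes of the deposited count table whose name is Krt followed by a number and at most 1 letter, which gave 53 of the 54532 genes listed. Poly-A RNA sequencing had been run on mouse distal colon, with 3 libraries labelled Itgbl1 -/- (KO 1 to KO 3) and 3 labelled WT (WT 1 to WT 3). Mice of both groups had drunk 3% dextran sulfate sodium (DSS, 36 to 50 kDa), a polymer that injures the colonic epithelium, until day 7. Both groups therefore carry the injury, and no undamaged colon is among the libraries. How the knockout allele was made, in which cells it acts, and the strain, age and sex of the animals are not given in the labels. The labels number the replicates but do not say whether they are separate animals, and a p-value here is relative to the spread among these libraries. The comparison asks how keratin transcripts differ between the labels.

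Keratins are the intermediate filament proteins of epithelial cells, and they assemble from pairs of an acidic type I and a basic type II chain. Simple keratins, led by Krt8 with Krt18, Krt19 and Krt20, form the network of the single-layered colonic epithelium and are needed for its resistance to stress; mice without Krt8 are known to develop colitis. Stratified epithelia such as skin use other pairs: Krt5 with Krt14 in the basal layer, Krt1 with Krt10 above it, and Krt6 with Krt16 and Krt17 after wounding. A further set builds hair and nail.

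Several facts of the libraries bear on every value. Counts totalled 13326970 to 18321389 per library. Itgbl1 had 12, 4 and 10 reads in KO 1 to KO 3 and 19, 6 and 5 reads in WT 1 to WT 3, a ratio of 0.878 (95% interval 0.25 to 3.08; adjusted p = 0.900 by edgeR), so its level does not bear out the label and the groups are called by their labels. KO 3 stood apart: mitochondrially encoded genes took 12.8% of its counts, against 3.94% and 4.88% in the other KO libraries and 3.53 to 4.14% in WT libraries. It also held 505 genes with at least 10 reads that had no read in any other library, against 5 in KO 1, 7 in KO 2 and 1 to 4 in each WT library; none of the 53 keratins was among them. Epcam, which marks epithelial cells, stood at 164, 1079 and 8.70 CPM (counts scaled to a common library total after TMM) in KO 1 to KO 3, against 2315, 2403 and 2293 CPM across WT 1 to WT 3. Other markers of the colonic epithelium were low in KO 3 too, where Esrp1 had 0 reads and Cdx2 had 1. In whole tissue, fewer epithelial cells and less keratin RNA per cell cannot be told apart.

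Of the 53 keratins, 27 lie on chromosome 11 between 99232761 and 100269871 and 26 on chromosome 15 between 101347444 and 102032027 (GRCm38). The chromosome 11 group holds type I genes, and the chromosome 15 group holds type II genes and Krt18, a type I gene that lies 23.7 kb from its partner Krt8. At least 1 read was found for 40 keratins, 26 reached 10 reads in some library, and 18 passed the filter on low counts and were tested. That filter asked for 0.586 CPM in at least 3 libraries. Of the 18 tested genes, 10 passed it in all 6 libraries, and Krt1 and Krt83 passed it only through the 3 KO libraries, so they had to be higher there to be tested and counts over the tested genes are description only.

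The bases before the starts of 4 keratins are shown because these genes carry the values that follow: the partner pair Krt8 and Krt18, Krt20 of mature colonocytes, and Krt84, a hair and nail keratin. The sequences are from RefSeq (GRCm38.p6), where 36 of the 53 keratins had an entry. Each is given 5′ to 3′ on the gene's strand and stops before the gene start of the deposited table or of RefSeq, whichever comes first. Capitals mark matches to 6 motifs searched on both strands in the 250 bases before the RefSeq start: TATAAA (a core promoter element), TTTATG (core of the CDX motif), CAAAGT (HNF4), GGGCGG (GC box), TGANTCA (AP-1) and GGAATG (TEAD).
Krt8, chr15:102004483-102004592, minus strand: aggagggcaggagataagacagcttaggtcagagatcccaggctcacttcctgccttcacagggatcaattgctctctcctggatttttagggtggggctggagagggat
Krt18, chr15:102027966-102028179, plus strand: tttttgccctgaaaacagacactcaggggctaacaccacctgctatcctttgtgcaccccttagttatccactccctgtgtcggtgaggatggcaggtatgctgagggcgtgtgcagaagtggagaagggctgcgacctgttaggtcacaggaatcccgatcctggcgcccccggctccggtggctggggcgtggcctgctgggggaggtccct
Krt20, chr11:99438154-99438403, minus strand: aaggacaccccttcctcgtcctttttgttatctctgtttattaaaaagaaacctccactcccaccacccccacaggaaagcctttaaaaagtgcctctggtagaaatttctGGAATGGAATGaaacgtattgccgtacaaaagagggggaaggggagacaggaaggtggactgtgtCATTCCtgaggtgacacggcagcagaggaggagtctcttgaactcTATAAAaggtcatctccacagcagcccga
Krt84, chr15:101532821-101533070, minus strand: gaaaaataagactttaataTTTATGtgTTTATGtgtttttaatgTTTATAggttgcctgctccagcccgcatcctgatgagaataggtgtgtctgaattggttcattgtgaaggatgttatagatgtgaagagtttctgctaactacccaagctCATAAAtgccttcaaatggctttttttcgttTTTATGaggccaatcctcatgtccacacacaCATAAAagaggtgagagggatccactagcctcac

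None of these letters occurred in the windows of Krt8 and Krt18. In the Krt20 window, TATAAA lay 29 bases before the start and GGAATG occurred 3 times. GGAATG was found at least 3 times in 0.0891% of the 32536 windows of the same length over all genes. In the Krt84 window TTTATG occurred 5 times, and no other of the 32536 windows held it 5 times or more (1 window in all, 0.00307%); both minimum numbers were chosen after these windows were seen. Across the family, TATAAA was in 17 of 36 windows against 12.3% of all windows, TTTATG in 16 against 10.8%, GGAATG in 3 against 12.6%, CAAAGT in 4 against 12.6%, GGGCGG in 2 against 33.0% and TGANTCA in 1 against 6.73%. The windows of Krt14 and Krt7 lay inside the deposited genes, whose starts were 1518 and 1360 bases from the RefSeq starts. Krt14 is among the 3 with GGAATG and Krt7 among the 2 with GGGCGG. Keratins arose by duplication and share sequence, so these windows are not independent, and a match is not a bound site.

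Keratin transcripts were lower in every KO library than in any WT library, and nearly all of that came from the simple keratins. Keratin genes held 14631, 81075 and 718 reads in KO 1 to KO 3, against 137780, 220344 and 160774 reads in WT 1 to WT 3. Their share of all counts was 0.185% ± 0.245 under the KO label and 0.998% ± 0.286 under the WT label (SD, n = 3 each). The groups did not overlap, and the two-sided exact permutation p was 0.1, the smallest that 3 libraries against 3 allow (0.350 adjusted over 7 measures per library). Without KO 3 the difference was -0.723 percentage points, against -0.813 with it. The 6 simple keratins held 95.5%, 98.8% and 66.3% of keratin reads in KO 1 to KO 3 and 99.1%, 99.8% and 99.3% in WT 1 to WT 3. The other 47 keratins together stood at 32.8, 56.4 and 18.8 CPM across KO 1 to KO 3 and 75.0, 34.7 and 62.7 CPM across WT 1 to WT 3, and these overlapped (exact permutation p = 0.200).

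No keratin passed an adjusted p of 0.05 by edgeR's quasi-likelihood test, and no gene did (0% of 16861). The spread between KO libraries was wide. At an unadjusted p under 0.05 there were 5 of 18 keratins (27.8%), near the 24.1% of all genes. Krt1 and Krt83 were the 2 higher ones, where 11.8% of all genes were higher, and Krt19, Krt36 and Krt84 were the 3 lower ones, where 12.3% were lower. No overlap between KO and WT libraries was found in 7 of 18 keratins (38.9%), against 32.3% of all genes. Of those, 2 were higher, where the share over all genes was 15%, and 5 were lower, where it was 17.3%. The log2 ratio, KO over WT, was below 0 in 14 of 18 keratins (77.8%) and in 46.9% of all genes, with medians of -1.52 and 0.06. Among KO libraries, KO 2 was the highest in 14 of the 18 keratins and KO 3 the lowest in 15, against 35.2% and 40.6% of all genes. DESeq2 called 4 keratins (10.6% of the 19254 genes with an adjusted p). The fit by limma-voom with quality weights called 2 (8.28% of all genes), while limma-voom without weights called 0. The genes concerned are named with their values.

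**Figure D1:**
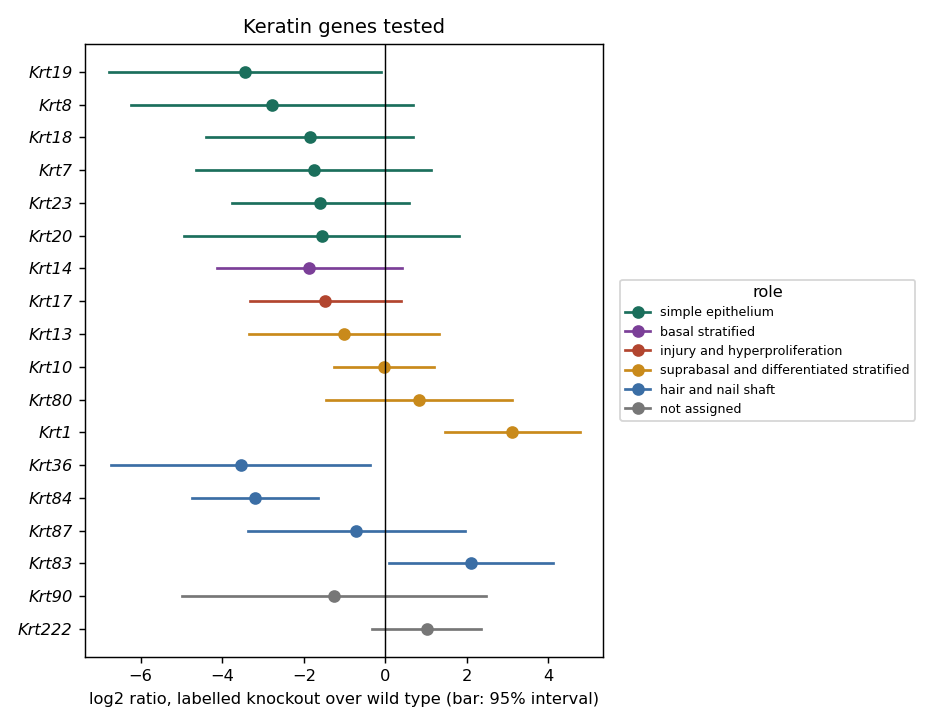
Log2 ratio, labelled knockout over wild type, of the 18 keratins tested, with its 95% interval as a bar and its role as a colour. All 6 simple keratins lie left of 0, and only Krt19, Krt36 and Krt84 on the left and Krt1 and Krt83 on the right have intervals that leave out 0.

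The 6 simple keratins had negative log2 ratios throughout, with a median of -1.80. The median was -1.24 without KO 3 and -4.05 without KO 2. With all 6 libraries it was -3.37 by limma-voom, -3.06 with quality weights and -3.31 with a replicate block. Krt8, the type II chain that every simple epithelium uses (ENSMUSG00000049382, chromosome 15, 101996698 to 102004482), stood at 286, 2074 and 12.1 CPM across KO 1 to KO 3, against 3683, 7737 and 4808 CPM across WT 1 to WT 3. All KO libraries were below all WT libraries, and KO 3 was far below the other two. Krt8 ranked 352, 30 and 8970 by count among the genes of KO 1 to KO 3, against 19, 3 and 6 in WT 1 to WT 3. Means were 791 ± 1119.9 CPM under the KO label and 5409 ± 2093 CPM under the WT label (SD, n = 3 each). The log2 ratio was -2.77 ± 1.47 (SE; 95% interval -6.23 to 0.68; adjusted p = 0.293). Without KO 3 it was -2.19 (adjusted p = 0.309), and without KO 2 it was -5.25 (adjusted p = 0.0686).

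Krt18, the type I partner of Krt8 (ENSMUSG00000023043, chromosome 15, 102028180 to 102032027), stood at 49.6, 299 and 9.71 CPM across KO 1 to KO 3, against 398, 574 and 324 CPM across WT 1 to WT 3. The groups did not overlap, and KO 2 came close to the lowest WT library. The log2 ratio was -1.85 ± 1.07 (SE; adjusted p = 0.330), and -1.30 without KO 3 (adjusted p = 0.419). Without KO 2 it was -3.92 and passed the threshold (adjusted p = 0.0364), with 10.4% of all genes called in that fit.

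Krt19, a type I keratin that can pair with Krt8 and is well known from intestinal progenitor cells (ENSMUSG00000020911, chromosome 11, 100140810 to 100148665), stood at 149, 632 and 5.52 CPM across KO 1 to KO 3. WT 1 to WT 3 stood at 1597, 4453 and 2543 CPM, so every KO library was lower. Means were 262 ± 328 CPM under the KO label and 2864 ± 1455 CPM under the WT label (SD, n = 3 each). Its log2 ratio of -3.45 ± 1.41 (SE; 95% interval -6.79 to -0.11) had the smallest p of the simple keratins, 0.0445, or 0.197 adjusted (edgeR quasi-likelihood). It was -2.87 without KO 3 (adjusted p = 0.200) and -5.28 without KO 2 (adjusted p = 0.0726). DESeq2 gave -3.48 (adjusted p = 0.0120) and limma-voom with quality weights gave -4.57 (adjusted p = 0.0476), both past the threshold.

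Krt20, the type I keratin of mature surface colonocytes (ENSMUSG00000035775, chromosome 11, 99428403 to 99438150), stood at 181, 1479 and 8.004 CPM across KO 1 to KO 3. In WT 1 to WT 3 it stood at 2329.5, 956 and 1634 CPM. KO 2 lay within the WT range, above WT 2. The log2 ratio was -1.56 ± 1.42 (SE; adjusted p = 0.530), -0.97 without KO 3 (adjusted p = 0.624) and -4.18 without KO 2 (adjusted p = 0.0929).

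Krt7, a type II keratin of ducts and other simple linings, stood at 21.4, 83.2 and 0.777 CPM across KO 1 to KO 3 and 79.1, 182 and 94.9 CPM across WT 1 to WT 3. Krt23, a type I keratin known from stressed liver, stood at 3.16, 12.4 and 0.855 CPM across KO 1 to KO 3 and 26.6, 7.40 and 15.5 CPM across WT 1 to WT 3. For both, KO 2 lay within the WT range and the other KO libraries lay below it. Their log2 ratios were -1.75 ± 1.22 and -1.59 ± 0.92 (SE; adjusted p = 0.409 and 0.328), -1.18 and -1.09 without KO 3, and -3.47 and -3.07 without KO 2.

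**Figure D2:**
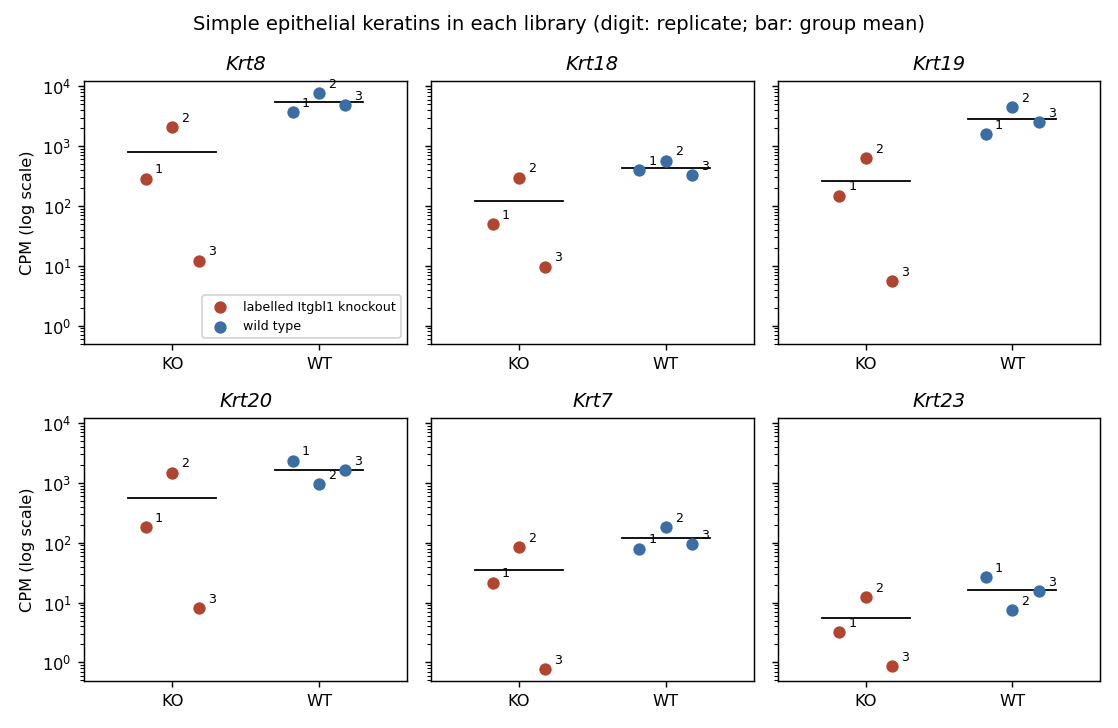
CPM on a log scale of the 6 simple keratins in each library, KO left and WT right, with the replicate number at each point and the group mean as a bar. KO 2 is the highest and KO 3 the lowest KO library in every panel, and in Krt20, Krt7 and Krt23 KO 2 lies within the range of the WT libraries.

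On the scale that lets genes be compared, CPM per kilobase of the deposited gene length, the order of the simple keratins in WT libraries was Krt8 (2763 ± 1069), Krt19 (1544 ± 784), Krt20 (851 ± 356), Krt18 (300.4 ± 89.3), Krt7 (16.8 ± 7.86) and Krt23 (10.6 ± 6.17; SD, n = 3 each). In KO libraries Krt8 averaged 404 ± 572, Krt20 289 ± 417, Krt19 141 ± 177, Krt18 83.2 ± 109, Krt7 4.99 ± 6.09 and Krt23 3.49 ± 3.89 CPM per kilobase (SD, n = 3 each). Every SD in KO libraries was larger than its mean, a spread between libraries that does not settle the order within a library. Within each KO library Krt8 was above Krt20, and Krt20 was above Krt19. Krt20 stood at 0.643, 0.725 and 0.671 times Krt8 in KO 1 to KO 3. In KO 3, however, Krt18 (6.76 CPM per kilobase) was above Krt8 (6.19), and Krt23 (0.546) was above Krt7 (0.110). In WT libraries the mean ± SD ranges of Krt8 and Krt19, of Krt19 and Krt20, and of Krt7 and Krt23 overlapped. Krt18 lay below Krt20 and above Krt7 beyond these ranges. Within each WT library Krt19 was below Krt8, at 0.458, 0.607 and 0.558 times its level in WT 1 to WT 3. The other overlapping pairs changed order, with Krt20 above Krt19 and Krt23 above Krt7 in WT 1 only. Deposited lengths were 7049 bases for Krt7 and 1855 for Krt19, above their longest coding transcripts (4094 and 1576 bases). The order of Krt23 and Krt7 in WT 1, and of Krt20 and Krt19 in KO 1, therefore depends on the length used. The type I share of the simple keratin level per kilobase was 58.5%, 55.3% and 69.6% in KO 1 to KO 3 and 55.5%, 45.3% and 49.8% in WT 1 to WT 3. It averaged 61.2% ± 7.50 under the KO label and 50.2% ± 5.11 under the WT label, with overlap (SD, n = 3 each; exact permutation p = 0.200, adjusted 0.350).

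The proportions between pairs of simple keratins differed between libraries. The 2 ratios given here were chosen after their values were seen. The level of Krt8 per kilobase was 4.24, 5.08 and 0.916 times that of Krt18 in KO 1 to KO 3, against 6.79, 9.90 and 10.9 times in WT 1 to WT 3. All KO libraries were below all WT libraries, KO 1 and KO 2 included. The difference of the mean log2 ratios was -1.74 (exact permutation p = 0.1, the smallest possible; adjusted 0.350), and -0.96 without KO 3, which had 156 reads of Krt8 and 125 of Krt18 (exact permutation p = 0.2). The level of Krt20 per kilobase was 1.17, 2.25 and 1.40 times that of Krt19 in KO 1 to KO 3, against 1.40, 0.207 and 0.619 times in WT 1 to WT 3. WT 1 lay among the KO libraries, and the difference of the mean log2 ratios was 1.45 (exact permutation p = 0.3, adjusted 0.420). It was 0.73 without WT 2, and 2.11 without WT 1, where the groups did not overlap.

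**Figure D3:**
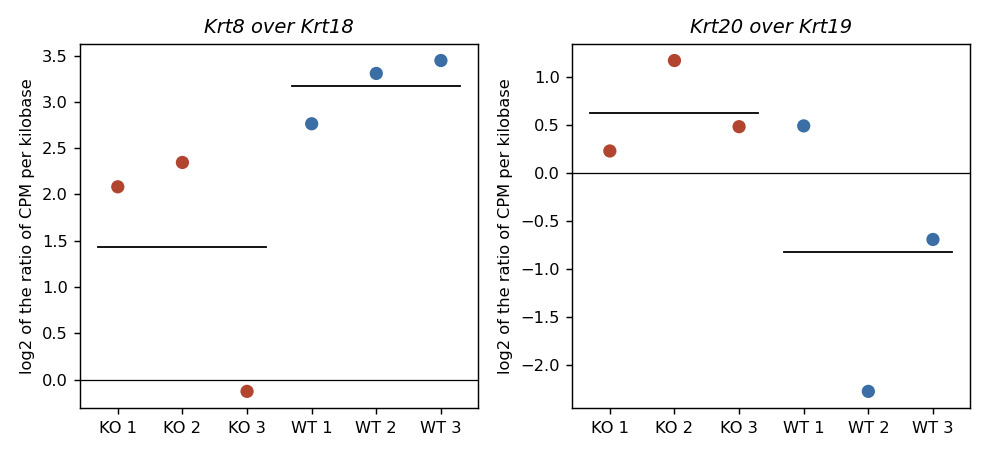
Log2 of the ratio of CPM per kilobase in each library for Krt8 over Krt18 and for Krt20 over Krt19, KO libraries first, with group means as bars. Krt8 over Krt18 runs from -0.13 to 2.35 in KO libraries and from 2.76 to 3.45 in WT libraries, while for Krt20 over Krt19 WT 1 at 0.49 lies among the KO libraries.

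WT libraries also differed from each other, in a pattern that separated the simple keratins. Krt8, Krt18, Krt19 and Krt7 were highest in WT 2, while Krt20 and Krt23 were lowest in WT 2 and highest in WT 1. WT 2 held 956 CPM of Krt20 beside 4453 CPM of Krt19, and WT 1 held 2329.5 CPM of Krt20 beside 1597 CPM of Krt19.

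The simple keratins moved with a list of 16 other intestinal epithelial genes, among them Epcam, Cdh1, Vil1, Cdx2 and Hnf4a. Summed, the keratins stood at 690.1, 4581 and 37.0 CPM and the list at 813, 5395 and 83.0 CPM across KO 1 to KO 3. In WT 1 to WT 3 the keratins stood at 8113, 13909 and 9418 CPM and the list at 12432, 15911 and 12966 CPM. The log2 ratio was negative for all 16 list genes (median -2.67); 7 had an unadjusted p under 0.05 (12.3% of all genes, lower), and all 16 were lower without overlap (17.3% of all genes). The ratio of the sums was 0.849, 0.849 and 0.446 in KO 1 to KO 3 and 0.653, 0.874 and 0.726 in WT 1 to WT 3. KO 1 and KO 2 lay within the WT range and KO 3 below it. The mean log2 ratio was -0.55 ± 0.54 under the KO label and -0.42 ± 0.21 under the WT label (SD, n = 3 each), a difference of -0.12 (exact permutation p = 0.800, adjusted 0.933). The sign of that difference is not settled: it was 0.19 without KO 3, and 0.70 with the mean of the genes' log2 CPM in place of the sums, where the groups did not overlap (exact permutation p = 0.1).

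**Figure D4:**
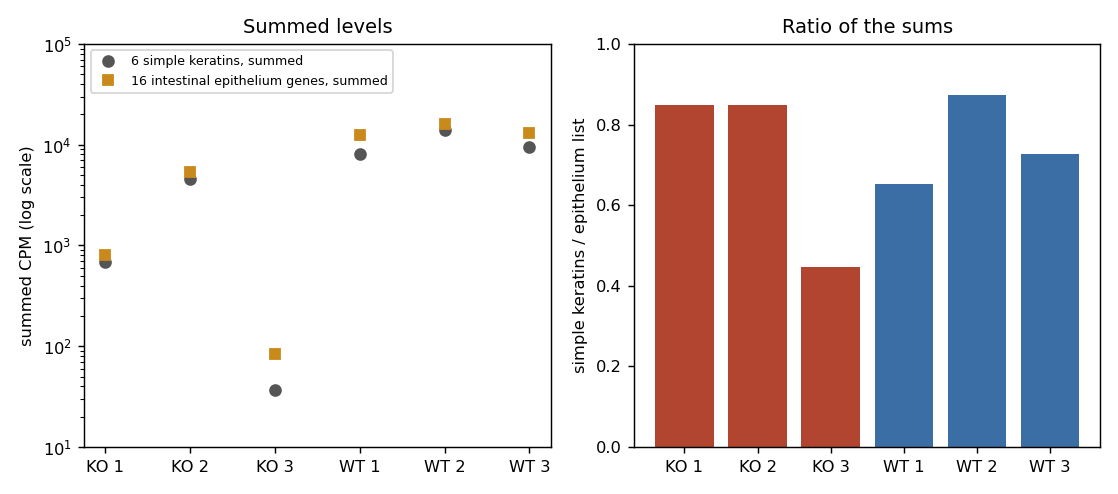
Left, summed CPM on a log scale of the 6 simple keratins (circles) and of 16 other intestinal epithelium genes (squares) in each library; right, the ratio of these sums. Both sums are lowest in KO 3, at 37.0 and 83.0 CPM, while the ratio spans 0.446 to 0.849 in KO libraries and 0.653 to 0.874 in WT libraries.

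Basal and injury keratins were scarce in all 6 libraries, with sums of 1.24, 2.17 and 0.777 CPM for the 3 basal genes across KO 1 to KO 3 and 1.66, 3.42 and 1.24 CPM across WT 1 to WT 3. Krt14, the basal type I keratin, had 11, 15 and 0 reads in KO 1 to KO 3, against 24, 42 and 21 in WT 1 to WT 3. The groups did not overlap, and the log2 ratio was -1.87 ± 0.97 (SE; edgeR quasi-likelihood, adjusted p = 0.284). Its partner Krt5 had 13, 23 and 0 reads in KO 1 to KO 3, against 1, 4 and 0 in WT 1 to WT 3, and did not pass the filter. Its highest counts were in KO 1 and KO 2. Without KO 3 it passed the filter with a log2 ratio of 3.16 (edgeR, unadjusted p = 0.0253, where 18.8% of all genes were under 0.05). In that fit Krt5 passed only through KO 1 and KO 2, so it had to be higher there to be tested. KO 3, the library left out, had 0 reads of Krt5. Krt15, a type I keratin of basal and stem cells in skin, had 1, 0 and 10 reads in KO 1 to KO 3 and 3, 8 and 0 in WT 1 to WT 3. A count of 0 in KO 3 allows a level of up to 0.233 CPM (3 counts; counting error only).

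Krt17, which skin makes after injury, was at 1.38, 2.17 and 0.777 CPM across KO 1 to KO 3 and at 2.79, 8.23 and 1.12 CPM across WT 1 to WT 3. KO 1 and KO 2 lay above WT 3, so the groups overlapped, and the log2 ratio was -1.47 ± 0.79 (SE; adjusted p = 0.298), -0.45 without WT 2 and -0.16 without KO 3 and WT 2. Krt6b had 0, 7 and 0 reads in KO 1 to KO 3 and 5, 6 and 21 in WT 1 to WT 3, while Krt6a and Krt16 reached at most 3 and 4 reads in any library. Of the 50-base stretches of the longest Krt6b transcript 44.5% also occur in Krt6a, so their reads could be split by the counting.

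Keratins of differentiated stratified cells had no common direction: of 13 members, 11 had a read and 4 were tested, 2 with positive and 2 with negative log2 ratios. Krt1, the type II keratin of the suprabasal epidermis (chromosome 15, 101845426 to 101850794), had 14, 19 and 13 reads in KO 1 to KO 3, against 3, 1 and 1 in WT 1 to WT 3. Each KO library, KO 3 included, was above each WT library, at 0.930 ± 0.209 CPM under the KO label and 0.1002 ± 0.0677 CPM under the WT label (SD, n = 3 each). The log2 ratio was 3.11 ± 0.71 (SE; 95% interval 1.46 to 4.77; adjusted p = 0.0983), 3.04 without KO 3 (adjusted p = 0.166). It passed the threshold with limma-voom and quality weights (3.03, adjusted p = 0.0363). Krt1 passed the filter, used there too, only through KO libraries and had to be higher in them to be tested. Its lack of overlap, interval and p-values are therefore description only. Krt10, the partner of Krt1 in skin, was at 2.47, 3.72 and 1.87 CPM across KO 1 to KO 3 and 3.63, 3.16 and 1.47 CPM across WT 1 to WT 3, with overlap and a log2 ratio of -0.03 ± 0.52 (SE; 95% interval -1.25 to 1.19; adjusted p = 0.975), whose sign changed in 9 of 17 alternatives.

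Krt80, a type II keratin associated with desmosomes in differentiating cells, had the most reads of this group: 249, 496 and 20 in KO 1 to KO 3 and 237, 48 and 114 in WT 1 to WT 3. At 28.4 CPM, KO 2 was above all WT libraries, and KO 3 at 1.55 CPM below them. The log2 ratio was 0.83 ± 0.96 (SE; adjusted p = 0.626), and -0.25 without KO 2. Relative to Krt8 per kilobase, Krt80 was at 0.0132, 0.00419 and 0.0393 in KO 1 to KO 3, against 0.00117, 0.000120 and 0.000428 in WT 1 to WT 3, and this ratio was chosen after its values were seen. Krt13, of mucosal squamous lining, had 10, 18 and 0 reads in KO 1 to KO 3 and 19, 10 and 24 in WT 1 to WT 3 (log2 ratio -1.02 ± 1.00, SE; adjusted p = 0.556), and Krt4, its usual partner, had none in any library.

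Krt78, known from squamous mucosa, had most of its reads in the WT libraries, with 0, 2 and 0 reads in KO 1 to KO 3 and 9, 24 and 15 in WT 1 to WT 3. It did not pass the edgeR filter. DESeq2, which has its own filter, gave -4.67 (adjusted p = 0.0341), and without KO 2 edgeR gave -7.05 (adjusted p = 0.0453). In that edgeR fit Krt78 passed the filter only through WT libraries, so it had to be lower under the KO label to be tested. Krt2, a late epidermal keratin, had 0, 4 and 24 reads in KO 1 to KO 3, most of them in KO 3, and no read in WT libraries. Its unadjusted p was 0.0212 by edgeR with no filter, where 14.5% of all genes were under 0.05. By DESeq2 it was 0.0172, where 24.7% of the 19254 genes with an adjusted p were under 0.05. Krt12, known from cornea, had 3, 10 and 7 reads in KO 1 to KO 3 and 13, 5 and 6 in WT 1 to WT 3.

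Hair and nail keratins were represented by 8 of 15 members, and 4 were tested. Krt84 (chromosome 15, 101525026 to 101532820), the gene whose upstream bases hold TTTATG 5 times, had 17, 14 and 7 reads in KO 1 to KO 3, against 40, 104 and 191 in WT 1 to WT 3. In CPM it stood at 0.728 ± 0.161 under the KO label and 6.74 ± 4.45 under the WT label (SD, n = 3 each). The KO libraries lay close together and all below WT, KO 2 included. Its log2 ratio of -3.19 ± 0.66 (SE; 95% interval -4.73 to -1.64; edgeR quasi-likelihood, adjusted p = 0.0940) had the smallest p of the family. It was -3.05 without KO 3 (adjusted p = 0.166), and DESeq2 called it at -3.23 (adjusted p = 3.27e-04).

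Krt36, a type I gene of the same class (chromosome 11, 100102007 to 100105626), was at 0.840, 3.20 and 0 CPM across KO 1 to KO 3 and at 32.2, 2.97 and 13.2 CPM across WT 1 to WT 3. Like Krt20 and Krt23, it was highest in WT 1 and lowest in WT 2, where it was below KO 2. Krt36 had a log2 ratio of -3.55 ± 1.34 (SE; 95% interval -6.73 to -0.38; adjusted p = 0.174), -3.001 without KO 3, and DESeq2 called it at -3.60 (adjusted p = 0.0184). Krt87 had 12, 49 and 0 reads in KO 1 to KO 3 and 37, 34 and 22 in WT 1 to WT 3 (log2 ratio -0.71 ± 1.13, SE; adjusted p = 0.726).

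Krt83 had 13, 16 and 41 reads in KO 1 to KO 3 and 9, 2 and 7 in WT 1 to WT 3. Every KO library was above every WT library, but Krt83 passed the filter only through KO libraries and had to be higher there to be tested. Its log2 ratio was 2.09 ± 0.85 (SE; 95% interval 0.09 to 4.10; adjusted p = 0.194), and 1.08 without KO 3 (adjusted p = 0.471). Of its 50-base stretches 19.7% are shared with Krt86. Krt83 and Krt84 lie 33.5 kb apart on chromosome 15 and had ratios of opposite sign.

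Keratins of the hair follicle sheath gave 7, 11 and 25 reads in all in KO 1 to KO 3 and 1, 2 and 6 in WT 1 to WT 3, and none of the 8 passed the filter. Krt25 had 2, 3 and 12 reads and Krt27 had 0, 0 and 12 reads in KO 1 to KO 3, against no read of Krt25 and 1 read of Krt27 in WT libraries. The unadjusted p of Krt25 was 0.0253 by edgeR with no filter and 0.0275 by DESeq2, where 14.5% and 24.7% of genes were under 0.05. The reads in KO 3 stood beside traces of other skin genes, named after their values were seen: Krtdap of differentiating epidermis had 2, 2 and 31 reads in KO 1 to KO 3 and 3, 2 and 1 in WT 1 to WT 3, Ivl (involucrin) had 0, 3 and 28 reads in KO 1 to KO 3 and none in WT libraries, and Dct of pigment cells had 0, 2 and 28 reads in KO 1 to KO 3 and 4, 2 and 2 in WT 1 to WT 3. A skin and hair list of 12 genes summed to 2.96 to 8.78 CPM in KO libraries and 2.71 to 4.30 CPM in WT libraries. In it 6 genes had no read, among them Hoxc13 and Tyr, which define hair shaft and pigment cells. Only 2 were tested, 1 with a positive and 1 with a negative log2 ratio. A cornified envelope and squamous list of 26 genes summed to 233, 803 and 289 CPM across KO 1 to KO 3. In WT 1 to WT 3 it summed to 1829, 2807 and 1817 CPM, most of it from Tgm3, which is given below. Of its 14 tested genes 9 had positive and 5 negative log2 ratios. Reads of prostate and gland genes were also most numerous in KO 3, with Svs2 at 1, 0 and 32 reads and Pbsn at 0, 0 and 18 reads in KO 1 to KO 3 and none in WT libraries. That list of 8 genes, 2 of them with no read, summed to 2.42, 9.15 and 21.2 CPM across KO 1 to KO 3 and 6.54, 9.24 and 6.78 CPM across WT 1 to WT 3. Their part in the low keratin counts of KO 3 was not tested.

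Krt90 and Krt222, for which no role is stated here, overlapped between the labels. Krt90 had 126, 107 and 0 reads in KO 1 to KO 3 and 175, 3 and 325 in WT 1 to WT 3 (log2 ratio -1.26 ± 1.58, SE; adjusted p = 0.651). Krt222 had 85, 24 and 60 reads in KO 1 to KO 3 and 31, 21 and 32 in WT 1 to WT 3 (log2 ratio 1.01 ± 0.56, SE; adjusted p = 0.312). The remaining 14 keratins with a read had at most 9 in any library, and 13 had none, among them Krt4, Krt9 and Krt31.

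**Figure D5:**
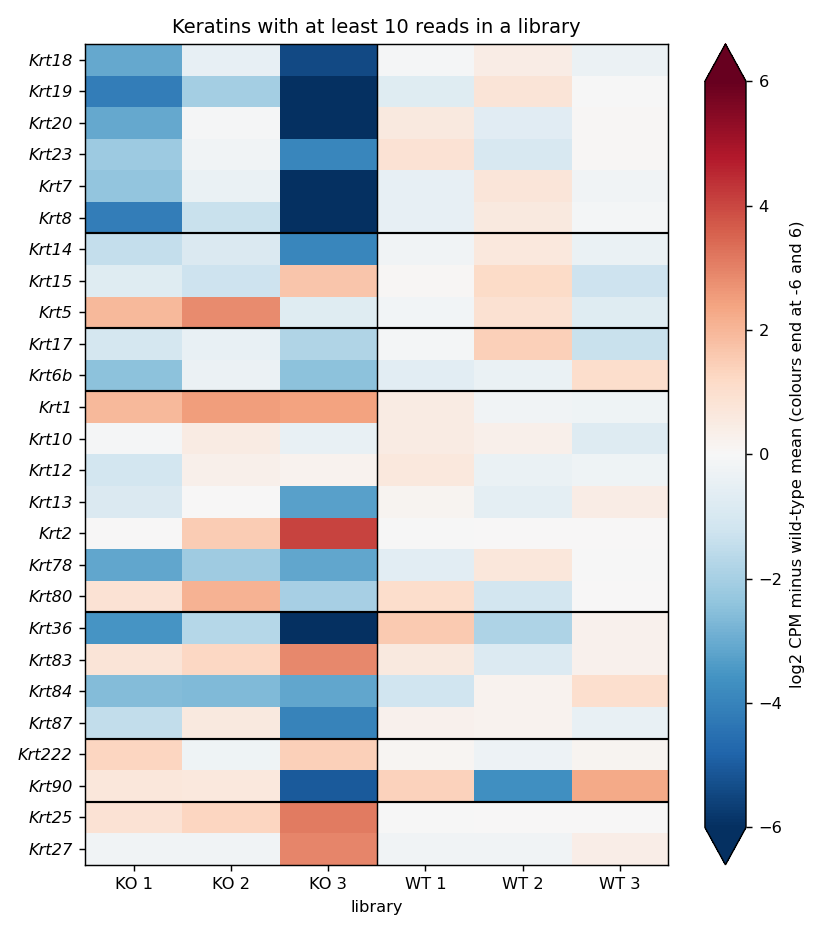
Deviation of log2 CPM from the mean of the WT libraries, as colour, for the 26 keratins with at least 10 reads in some library; KO libraries are left of the line and colours end at -6 and 6. The simple keratins are lowest in KO 3, and Krt1, Krt2, Krt25 and Krt83 are among the genes above the WT mean in KO 3.

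Most genes that anchor keratins to desmosomes and hemidesmosomes had log2 ratios below 0, and none passed an adjusted p of 0.05. Of 15 such genes 12 had a negative log2 ratio (46.9% of all genes tested) and 3 a positive one, with a median of -1.91. An unadjusted p under 0.05 was found for 8, all lower (12.3% of all genes), and 11 were lower without overlap (17.3% of all genes), while 4 overlapped. Their sum was 1104, 1581 and 400.5 CPM across KO 1 to KO 3, against 3033, 3454 and 3724 CPM across WT 1 to WT 3; KO 3 was again the lowest. Evpl, which encodes the linker envoplakin, was at 6.62, 6.46 and 1.79 CPM across KO 1 to KO 3 and 20.3, 118 and 62.5 CPM across WT 1 to WT 3 (log2 ratio -3.74, adjusted p = 0.0940). Eppk1, which encodes epiplakin, a protein that binds keratin filaments, was at 1.98, 10.5 and 4.66 CPM across KO 1 to KO 3 and 15.99, 152 and 59.1 CPM across WT 1 to WT 3 (log2 ratio -3.72, adjusted p = 0.107). Both were highest in WT 2, as Krt8 was. Pkp1, a desmosomal plaque gene, had a log2 ratio of -4.67 and Dsc2, a desmosomal cadherin, of -2.99 (adjusted p = 0.0983 and 0.108).

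Genes of the cornified envelope did not share a direction. Of 26 genes 14 were tested, 9 with positive and 5 with negative log2 ratios (median 0.56); 3 higher (11.8% of all genes) and 3 lower (12.3%) had an unadjusted p under 0.05. Scel, which encodes sciellin of the cornified envelope, had 3, 2 and 0 reads in KO 1 to KO 3 and 29, 92 and 48 in WT 1 to WT 3 (log2 ratio -5.08, adjusted p = 0.0940). Tgm3, a transglutaminase, was at 28.5, 178 and 2.02 CPM across KO 1 to KO 3 and 1027, 2111 and 1113 CPM across WT 1 to WT 3 (log2 ratio -4.35, adjusted p = 0.143). Stfa1, a protease inhibitor that mouse neutrophils also make, had 23, 27 and 37 reads in KO 1 to KO 3 and 2, 0 and 2 in WT 1 to WT 3 (log2 ratio 4.40, adjusted p = 0.0940). Sprr1b, Sprr3, Cnfn, Dsg1a and Calml3, all of squamous cells, had no read in any library.

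Mesothelial cells, which line the outer surface of the colon and also make simple keratins, were checked by 8 genes. These summed to 30.6, 38.1 and 11.7 CPM across KO 1 to KO 3 and 19.7, 45.4 and 17.2 CPM across WT 1 to WT 3, far below the simple keratins of KO 1, KO 2 and the WT libraries and of the same order as the 37.0 CPM of KO 3. Wt1, a mesothelial transcription factor, was at 1.78, 3.49 and 5.75 CPM across KO 1 to KO 3 and 1.13, 0.759 and 0.531 CPM across WT 1 to WT 3 (log2 ratio 2.17, adjusted p = 0.116). Wt1 was highest in KO 3, where the sum of the 8 genes was lowest. Of the 7 tested genes, only Wt1 was higher without overlap (15% of all genes). The part of such cells in the keratin reads of KO 3 was not tested.

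Reads of Krt8 could be shared with its processed copy Krt8-ps, since 26.9% of the 50-base stretches of Krt8 also occur there. Krt8-ps held 9, 35 and 0 reads in KO 1 to KO 3 and 89, 205 and 131 reads in WT 1 to WT 3, at most 0.168% of the Krt8 reads. Krt18 shared 0.72% of its stretches with another gene, and Krt19, Krt20, Krt1 and Krt84 shared none. The strand setting of the counting is not given in the sources used here; the genes overlapping Krt8, Krt7 and Krt80 on the other strand had at most 24, 3 and 38 reads in any library.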

How the data were processed

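Counts of reads per gene, whole numbers in 1 deposited column for each library, were made by the authors from reads cleared of adaptors, poly-N and low quality, per the labels' protocols. The submitters' processing notes list featureCounts 1.5.0-p3, HISAT2 2.0.5, DESeq2 and StringTie 1.3.3b and the builds mm10 and GRCm38, without saying what each was used for. All 53 keratins have the same coordinates in GENCODE M21 (GRCm38), from which shared 50-base stretches and overlapping genes were taken.

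In R 4.3.3, edgeR 4.0.16 fitted the whole table: filterByExpr (minimum count 10, minimum total 15), TMM scaling, the robust quasi-likelihood F test with no covariate, and Benjamini-Hochberg adjustment over 16861 genes with a threshold of 0.05. CPM uses TMM-scaled library sizes, log2 CPM a prior count of 2. Single values per library were compared by two-sided exact permutation tests, adjusted over 7 measures. Intervals of 95% are from the fit, and limits for a count of 0 take 3 counts; these limits cover counting error only. The quasi-likelihood test was tested on simulated data. No pair of libraries within a group looked like a repeat of the same library (chi-square per degree of freedom 50.7 to 253).

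Keratins were grouped by textbook role, and every keratin with at least 10 reads in some library is described singly. From each other list at most 4 tested genes with the smallest p are named with a log2 ratio. Genes such as Epcam, Krtdap and Svs2 are named by CPM or reads outside that rule. The members, roles and lists were chosen with earlier results of these data known. Replicate numbers were not treated as pairs, and the labels give all 6 libraries 1 batch date. Alternatives were RLE and upper-quartile scaling, no filter and a filter of 10 reads in every library, DESeq2 1.42.0, limma 3.58.1 voom with and without quality weights, a fit without the robust option, a replicate block, and each library left out.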

Additional observations from a re-analysis of the deposited data

Results flagged for a closer look

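Krt74, a keratin gene of the hair follicle sheath that the deposited table lists as a transcribed unitary pseudogene and that therefore lies outside the protein-coding family, had 15 reads in KO 3, 0 reads in KO 1 and KO 2 and none in any WT library. It was singled out as a signal outside the genes compared, above the level in the WT libraries. KO 3 is also the library with 12 reads each of Krt25 and Krt27, which belong to the same sheath. The part of other tissue in these reads was not tested.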

How the results depend on the processing

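Of 298 recomputed log2 ratios of the 18 keratins, 288 kept their direction, and 16 keratins had no reversal. Krt10, at -0.03, changed sign with upper-quartile scaling (0.11), limma-voom (0.035), quality weights (0.46), the replicate block (0.00082) and without KO 3 and WT 2 (0.26). With 1 library left out Krt10 ran from -0.39 to 0.19, positive without KO 1, KO 3, WT 1 or WT 2, and Krt80 from -0.25 without KO 2 to 1.51. The simple keratins over the epithelium list, -0.12, ran from -0.28 to 0.19 with 1 library left out, being positive without KO 3, and came to 0.70 with the mean of log2 CPM. Other ratios moved by over 1.5 times with 1 library left out: without KO 2 Krt13 (-2.01), Krt14 (-2.61), Krt36 (-5.17) and Krt87 (-2.58), without WT 1 Krt1 (3.75) and Krt36 (-2.57), without WT 2 Krt90 (-1.86) and without WT 3 Krt90 (-0.36). The cause was not tested.

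The number of genes past the threshold, 0, became 192 with no filter, 2034 with DESeq2 and 1396 with quality weights, and ran from 0 to 1813 with 1 library left out, the highest without KO 2. The number of keratins past it, 0, became 4 with DESeq2 and 2 with quality weights, and ran from 0 to 2 with 1 library left out. Keratins higher at an unadjusted p under 0.05, 2, became 0 with 10 reads asked in every library, where fewer genes are tested, 4 with DESeq2, 1 with limma-voom and 1 with quality weights, and ran from 1 to 3 with 1 library left out. Those lower, 3, became 1, 5 and 7 with the stricter filter, DESeq2 and quality weights, and ran from 2 to 9, the highest without KO 2. Keratins with a p-value numbered 10 with the stricter filter, 40 with DESeq2, 18 with quality weights and 19 without KO 2, against 18. Over all genes the lower share at that p was 12.4% with the stricter filter, 12.4% with DESeq2, 15.3% with quality weights and 17.4% without KO 2, against 12.3%. The higher share was 12.4%, 12.3%, 12.9% and 13.9%, against 11.8%. The DESeq2 shares are over the 19254 genes with an adjusted p, a smaller set than that behind its keratin counts. Upper-quartile scaling moved the median log2 ratio of all genes to 0.21 from 0.06.

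Same-numbered libraries deviated from their group means with r = -0.20, 0.087 and -0.075 over genes. Differently numbered ones ran from -0.17 (KO 2 with WT 3) to 0.34 (KO 1 with WT 3). With so few libraries in a group these values cannot show whether the numbers mark pairs. With the replicate block 3 genes passed the threshold, no keratin did, and 1 keratin was higher at an unadjusted p under 0.05.

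The quasi-likelihood setting listed as an alternative is the default of this edgeR version, so the other setting was run in its place, chosen after seeing the data, as were the proportions of paired keratins with 1 library left out, the share over counts outside mitochondrial genes and Epcam alone as denominator. Leaving out 1 library leaves 2 against 3, where an exact permutation test cannot reach the threshold. Genes under about 10 reads a library are limited by depth: for Krt5, Krt15, Krt2, Krt25 and Krt27 the main filter gave no test. Krt5 passed it only when libraries were left out, and Krt2 and Krt25 got an unadjusted p under 0.05 with no filter and with DESeq2, none past the adjusted threshold.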

Other observations

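Among 15 genes of other intermediate filaments, 10 had a positive and 5 a negative log2 ratio (median 0.43), where 46.9% of all genes were negative. None passed an adjusted p of 0.05 by edgeR. Gfap, the filament of glia, was at 119, 110.2 and 405 CPM across KO 1 to KO 3, against 40.9, 10.6 and 29.0 CPM across WT 1 to WT 3 (log2 ratio 2.98, adjusted p = 0.0999). Vim, the filament of mesenchymal and immune cells, was at 716, 662 and 995 CPM across KO 1 to KO 3, against 352, 242 and 335 CPM across WT 1 to WT 3 (log2 ratio 1.35, adjusted p = 0.111). In both genes every KO library was above every WT library, and KO 3, lowest for the simple keratins, was highest. Only these 2 of the 15 were higher without overlap (15% of all genes), and 2 others were lower without overlap (17.3% of all genes). Lmnb2, a nuclear lamin, had a log2 ratio of -1.66 (adjusted p = 0.108), and Bfsp1, a filament gene known from lens, of -2.48 (adjusted p = 0.112).

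Of 11 genes whose products act with keratins under stress 5 had a positive and 6 a negative log2 ratio (median -0.07). Mapk13, a p38 kinase gene, was at 36.8, 183 and 38.6 CPM across KO 1 to KO 3, against 445, 352 and 364 CPM across WT 1 to WT 3 (log2 ratio -2.17, adjusted p = 0.132).

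Of the neighbouring keratin genes on chromosome 15, Krt80 and Krt7 lie 40.9 kb apart and had log2 ratios of 0.83 (-0.25 without KO 2) and -1.75, and Krt7 and Krt87 lie 0.724 kb apart and had -1.75 and -0.71. Their difference was not tested.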
